A study of Mus musculus with 8 samples.

Results

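The D-type cyclins Ccnd1, Ccnd2 and Ccnd3, the kinases Cdk4 and Cdk6 that they activate, and the pocket proteins Rb1, Rbl1 and Rbl2 of the retinoblastoma (Rb) family were followed in mouse acute myeloid leukaemia cells labelled as lacking Ezh1, Ezh2, both or neither. These 8 genes were taken by symbol from the 31574 rows of the larger deposited table, where each has 1 row, as the core of one pathway and with earlier results of these data known. All 8 lay above the floor of the values in all 8 libraries, so 8 of 8 passed the filter on low values. Ezh1 and Ezh2 each supply the methyltransferase of Polycomb repressive complex 2, a silencer of genes.

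Cells enter the division cycle when mitogens raise a D-type cyclin, which binds Cdk4 or Cdk6. The active kinase phosphorylates the pocket proteins, which then release E2F transcription factors, and genes of DNA replication are expressed. Inhibitors of the Ink4 class block Cdk4 and Cdk6 directly, and those of the Cip/Kip class act mainly on Cdk2. In blood, the 3 D-type cyclins overlap in function, and Cdk6 is the kinase best known for a role in haematopoietic stem cells and leukaemia.

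The 8 libraries fall into 4 groups of 2, all from bone marrow of C57BL/6 mice and described in the series' design as c-kit+ leukaemia cells. Ezh1-null tamoxifen libraries are labelled Ezh1-/- Ezh2-/- and Ezh1-null oil libraries Ezh1-/- Ezh2+/+. Ezh1-present tamoxifen libraries are labelled Ezh1+/+ Ezh2-/- and Ezh1-present oil libraries Ezh1+/+ Ezh2+/+. The design text gives the Ezh2 alleles as flox/flox where the labels of the oil libraries say Ezh2+/+, and as Δ/Δ where those of the tamoxifen libraries say Ezh2-/-. Tamoxifen was given at 10 mg/kg/day in 5 intraperitoneal doses, oil libraries had corn oil alone, and marrow of the femur and tibia was taken on day 7 after treatment. All titles carry the word Moz, which is not explained, and the Cre that deletes Ezh2 is not named. Tamoxifen cannot be told apart from deletion of Ezh2, nor Ezh1 genotype from a difference between separate leukaemias. The labels do not say that the replicates are separate animals, so each p measures the spread between these libraries, which may be technical.

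Each value is the log2 of a normalized expression value minus the median of that gene in the 8 libraries. A value of 1 is therefore a doubling over that median, the level itself is gone, and values of different genes cannot be ranked against each other. The number of reads behind a value is unknown. Changes are given on the log2 scale ± the standard error of a limma fit to all 8 libraries, and a gene is called changed where its Benjamini-Hochberg adjusted p over all 18051 rows tested lay under 0.05.

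Ezh1 had values of -1.61 and -1.55 in Ezh1-null tamoxifen and -1.75 and -1.94 in Ezh1-null oil libraries, against 1.55 and 1.63 in Ezh1-present tamoxifen and 1.71 and 1.66 in Ezh1-present oil libraries. The Ezh1 labels thus fit the data. Ezh2 lay at -0.53 and -0.56 in Ezh1-null tamoxifen and -0.12 and -0.03 in Ezh1-null oil, and at 0.09 and 0.03 in Ezh1-present tamoxifen and 0.25 and 0.23 in Ezh1-present oil libraries. Its change after tamoxifen was -0.47 ± 0.08 in Ezh1-null cells (limma adjusted p = 0.0554) and -0.18 ± 0.08 in Ezh1-present cells (adjusted p = 0.293), and whole-gene values do not resolve a deleted exon. The Ezh1-present tamoxifen libraries, labelled Ezh2-/-, lay above the Ezh1-null oil libraries, labelled Ezh2+/+, so these values do not check the Ezh2 labels. Kit, the gate, lay above the floor in all 8 libraries. It lay between 0.25 and 0.64 in the Ezh1-null and between -0.71 and -0.25 in the Ezh1-present libraries. Kit was thus called higher in Ezh1-null cells in oil (1.26 ± 0.17, limma adjusted p = 0.00848) and after tamoxifen (0.79 ± 0.17, adjusted p = 0.0453). Ezh1-present tamoxifen replicate 2 stood apart from its partner: its median over 14 T and NK cell markers was 2.29 against 0.95 in replicate 1, and over 9 erythroid markers 2.07 against -0.45. The tamoxifen changes of Ccnd1, Ccnd2 and Rb1 in Ezh1-present cells lean on this library and are given with and without it. So are the counts of T and NK cell markers called after tamoxifen in these cells.

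Among the 8 genes the cyclins Ccnd1 and Ccnd2 varied most. The range over the 8 libraries was 2.18 for Ccnd1 and 2.40 for Ccnd2 on the log2 scale, larger than in 78.3% and 80.9% of the 15517 rows with every library above the floor. The other 6 genes spanned 0.33 (Cdk6) to 0.61 (Cdk4), less than the median range of 0.86 over those rows. Ccnd3 spanned 0.59, Rb1 0.57, Rbl1 0.50 and Rbl2 0.39. The plot of values by library shows this contrast between the 2 cyclins and the rest of the pathway core.

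**Figure D1:**
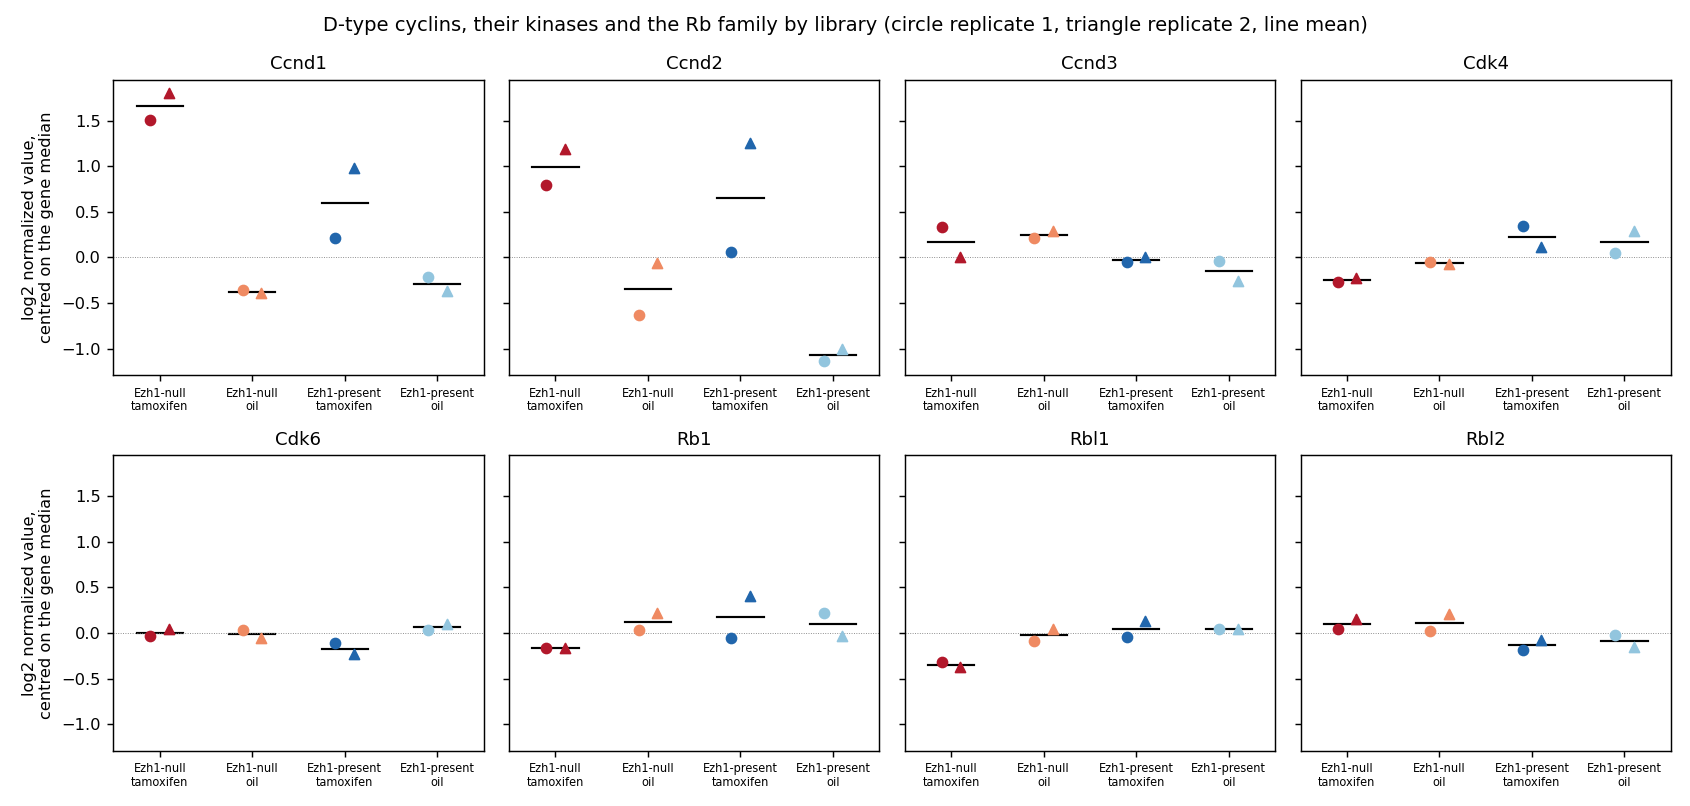
Log2 normalized values of the 8 genes, each centred on the gene's median (y axis), in the 4 groups (x axis); circles are replicate 1, triangles replicate 2 and lines the group mean. Ccnd1 reaches 1.51 and 1.80 in the Ezh1-null tamoxifen libraries and Ccnd2 lies lowest in the Ezh1-present oil libraries, while Cdk6 stays between -0.23 and 0.10 in all 8.

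Ccnd1 encodes cyclin D1 (gene 12443, mm10 chromosome 7, 144929931 to 144939925). Its values were 1.51 and 1.80 in Ezh1-null tamoxifen libraries, against -0.36 and -0.39 in Ezh1-null oil libraries. In Ezh1-present cells they were 0.21 and 0.98 after tamoxifen, against -0.21 and -0.37 after oil. Both Ezh1-null tamoxifen libraries lay above all 6 others, and the 4 oil libraries lay between -0.39 and -0.21. The group means were 1.65 ± 0.21, -0.37 ± 0.02, 0.59 ± 0.54 and -0.29 ± 0.12 (SD, n = 2 each) for Ezh1-null tamoxifen, Ezh1-null oil, Ezh1-present tamoxifen and Ezh1-present oil.

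Ccnd1 rose after tamoxifen in Ezh1-null cells, by 2.02 ± 0.27, which is 4.06-fold with a 95% interval of 2.53 to 6.53 (limma adjusted p = 0.0284). In Ezh1-present cells the change was 0.88 ± 0.27 (1.84-fold, adjusted p = 0.168) and did not pass. That change was 0.50 ± 0.17 without Ezh1-present tamoxifen replicate 2 and 1.27 ± 0.17 without replicate 1, so its size depended on the library kept. The difference between both tamoxifen changes was 1.14 ± 0.38 (limma adjusted p = 0.283), so a larger rise in Ezh1-null cells did not pass the test over all rows. After oil the Ezh1 genotypes differed by -0.08 ± 0.27 (adjusted p = 0.856). After tamoxifen Ezh1-null cells lay 1.06 ± 0.27 above Ezh1-present cells (limma adjusted p = 0.0638), which did not pass. Without 1 library this difference ran over 0.67 to 1.44, with 1.44 when Ezh1-present tamoxifen replicate 2 was left out.

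The rise of Ccnd1 in Ezh1-null cells kept its direction and a size of 1.81 to 2.17 over 15 alternative fits and was called in 7 of them. Without Ezh1-null tamoxifen replicate 1 or 2 the adjusted p was 0.105 or 0.135, without Ezh1-null oil replicate 1 or 2 it was 0.098 or 0.114, and without either Ezh1-present oil library it was 0.067. An Ezh1-present library cannot alter this difference of means and enters only through the shared estimate of spread. In the order of group levels (Ezh1-null tamoxifen, Ezh1-present tamoxifen, Ezh1-present oil, Ezh1-null oil) no pair of neighbours differed past the threshold, and the calls were between Ezh1-null tamoxifen and each of the oil groups. Oraov1, which overlaps the end of Ccnd1 on the other strand by 818 bases of their deposited spans, changed by 0.00 ± 0.11 after tamoxifen in Ezh1-null cells.

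Ccnd2 encodes cyclin D2 (gene 12444, chromosome 6, 127125709 to 127151048), a D-type cyclin prominent in lymphoid and other blood cells. Its values were 0.79 and 1.19 in Ezh1-null tamoxifen libraries, against -0.63 and -0.06 in Ezh1-null oil libraries. They were 0.06 and 1.25 in Ezh1-present tamoxifen libraries, against -1.14 and -1.0 in Ezh1-present oil libraries. Tamoxifen libraries lay above oil libraries in both Ezh1 genotypes without overlap, but the 2 Ezh1-present tamoxifen libraries differed by more than any other pair of replicates of this gene. The lowest group was Ezh1-present oil, at -1.07 ± 0.10 (SD, n = 2).

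The change of Ccnd2 after tamoxifen was 1.34 ± 0.44 in Ezh1-null cells (2.53-fold, adjusted p = 0.202) and 1.73 ± 0.44 in Ezh1-present cells (3.32-fold, limma adjusted p = 0.127), and neither passed. The difference between these changes was -0.39 ± 0.62, with an interval of -1.95 to 1.17, which covers a larger response in either genotype. Without Ezh1-present tamoxifen replicate 2 the Ezh1-present change was 1.14 ± 0.32, and without replicate 1 it was 2.33 ± 0.32. In oil both Ezh1-null libraries lay above both Ezh1-present libraries, by 0.73 ± 0.44 on average (limma adjusted p = 0.28), which did not pass. After tamoxifen the genotypes overlapped and their means differed by 0.33 ± 0.44 (adjusted p = 0.641), or by 0.93 without Ezh1-present tamoxifen replicate 2 and -0.26 without replicate 1. In the authors' smaller deposited table, whose rows all reach a 2-fold change by the authors' figures in 1 or both tamoxifen comparisons, Ccnd1 and Ccnd2 are listed and the other 6 genes are not.

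The row 9330179D12Rik runs on the strand opposite to Ccnd2, and the annotation (GENCODE M21) classes it as antisense and gives 368 bases of exon shared by both. It lay at 1.19 and 1.27 in Ezh1-null tamoxifen and -2.85 and -1.66 in Ezh1-null oil libraries, and at 0.53 and 1.77 in Ezh1-present tamoxifen and -0.53 and -1.04 in Ezh1-present oil libraries. It rose after tamoxifen in Ezh1-null cells by 3.48 ± 0.56 (limma adjusted p = 0.0442), and its change in Ezh1-present cells was 1.93 ± 0.56 (adjusted p = 0.156), or 1.31 ± 0.56 without Ezh1-present tamoxifen replicate 2 and 2.55 ± 0.56 without replicate 1. The call in Ezh1-null cells ended without any 1 of the 8 libraries and held in 4 of 15 alternative fits (adjusted p 0.0382 to 0.182). The sources do not say whether the counting used strand, so reads from Ccnd2 and this row cannot be told apart in the shared bases.

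Markers of other marrow cells differed between the groups too. The group means of Ccnd2 fell from Ezh1-null tamoxifen over Ezh1-present tamoxifen and Ezh1-null oil to Ezh1-present oil. The tamoxifen groups overlapped (difference 0.33 ± 0.44), so their order was not resolved. The T and NK cell list had the same order except that Ezh1-present tamoxifen lay above Ezh1-null tamoxifen. Over 14 of 15 T and NK cell markers tested, the median was 0.28 and 0.48 in Ezh1-null tamoxifen and -0.61 and -0.68 in Ezh1-null oil libraries. It was 0.95 and 2.29 in Ezh1-present tamoxifen and -1.94 and -1.96 in Ezh1-present oil libraries, where Cd3e lay at the floor in both. In oil 5 of the 14 were called higher and 1 lower in Ezh1-null cells, where 12.5% and 12.4% of all rows were. Of the 14, 10 had changes above 0 in Ezh1-null and 14 in Ezh1-present cells after tamoxifen. Called higher were 1 and 2, where 3.1% and 0.637% of all rows were. In Ezh1-present cells 0 were called without tamoxifen replicate 2 and 4 without replicate 1, and the changes of all 14 stayed above 0.

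Mature neutrophil and erythroid markers had, like Ccnd2, their lowest group level in the Ezh1-present oil libraries. So did all other marker lists except the stromal and endothelial and the megakaryocyte list, which were lowest in Ezh1-null oil. The median of 10 neutrophil markers was 1.76 and 0.36 in Ezh1-null tamoxifen, 0.58 and 1.2 in Ezh1-null oil, -1.93 and -0.33 in Ezh1-present tamoxifen and -2.89 and -2.89 in Ezh1-present oil libraries. In oil 6 of these 10 were called higher in Ezh1-null cells, where 12.5% of all rows were. For tamoxifen against oil 0 were called in Ezh1-null (3.4% of all rows) and 0 in Ezh1-present cells (0.903%). The median of 9 of 12 erythroid markers tested was 0.19 and -0.01 in Ezh1-null tamoxifen, 0.01 and 1.43 in Ezh1-null oil, -0.45 and 2.07 in Ezh1-present tamoxifen and -2.98 and -1.21 in Ezh1-present oil libraries, with 1 called higher in Ezh1-null cells in oil.

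B cell markers were highest in the Ezh1-null oil libraries. The median of 9 was 2.34 and 1.01 in Ezh1-null tamoxifen, 3.42 and 2.53 in Ezh1-null oil, -1.46 and -1.75 in Ezh1-present tamoxifen and -1.51 and -2.02 in Ezh1-present oil libraries. Between genotypes 7 of the 9 were called higher in Ezh1-null cells in oil and 6 after tamoxifen, where 12.5% and 6.77% of all rows were. The median change for tamoxifen against oil in Ezh1-null cells was -1.28, with 0 called, where 3.4% of all rows were. The median of 12 stromal and endothelial markers was -0.37 and -0.17 in Ezh1-null tamoxifen, -1.12 and -0.57 in Ezh1-null oil, 0.73 and 1.97 in Ezh1-present tamoxifen and 0.41 and 0.06 in Ezh1-present oil libraries. That of 9 megakaryocyte markers was 0.31 and -0.03 in Ezh1-null tamoxifen, -0.97 and -0.57 in Ezh1-null oil, 0.56 and 1.97 in Ezh1-present tamoxifen and -0.90 and -0.31 in Ezh1-present oil libraries. The median of 5 leukaemic progenitor markers was 0.25 and 0.38 in Ezh1-null tamoxifen and 0.26 and 0.22 in Ezh1-null oil libraries. It was -0.26 and -0.25 in Ezh1-present tamoxifen and -0.64 and -0.47 in Ezh1-present oil libraries. In oil 2 of these 5 were called higher in Ezh1-null cells, where 12.5% of all rows were. The median of 9 of 10 monocyte and macrophage markers lay between -0.35 and 0.23 in all 8 libraries. Of these 9, 3 were called higher and 4 lower in Ezh1-null cells in oil, where 12.5% and 12.4% of all rows were. Ezh1-null tamoxifen libraries were also set against Ezh1-present oil libraries, where 13.2% of all rows were called higher and 10.2% lower. Called higher were 5 of 14 T and NK cell, 7 of 10 neutrophil and 5 of 9 B cell markers. So were 2 of 5 progenitor, 4 of 9 monocyte and macrophage and 1 of 9 megakaryocyte markers. Called lower were 1 T and NK cell, 3 monocyte and macrophage, 1 megakaryocyte and 2 stromal and endothelial markers. The part of such cells in the Ccnd1 and Ccnd2 values was not tested. In bulk samples fewer cells of a type and less RNA per cell cannot be told apart.

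**Figure D2:**
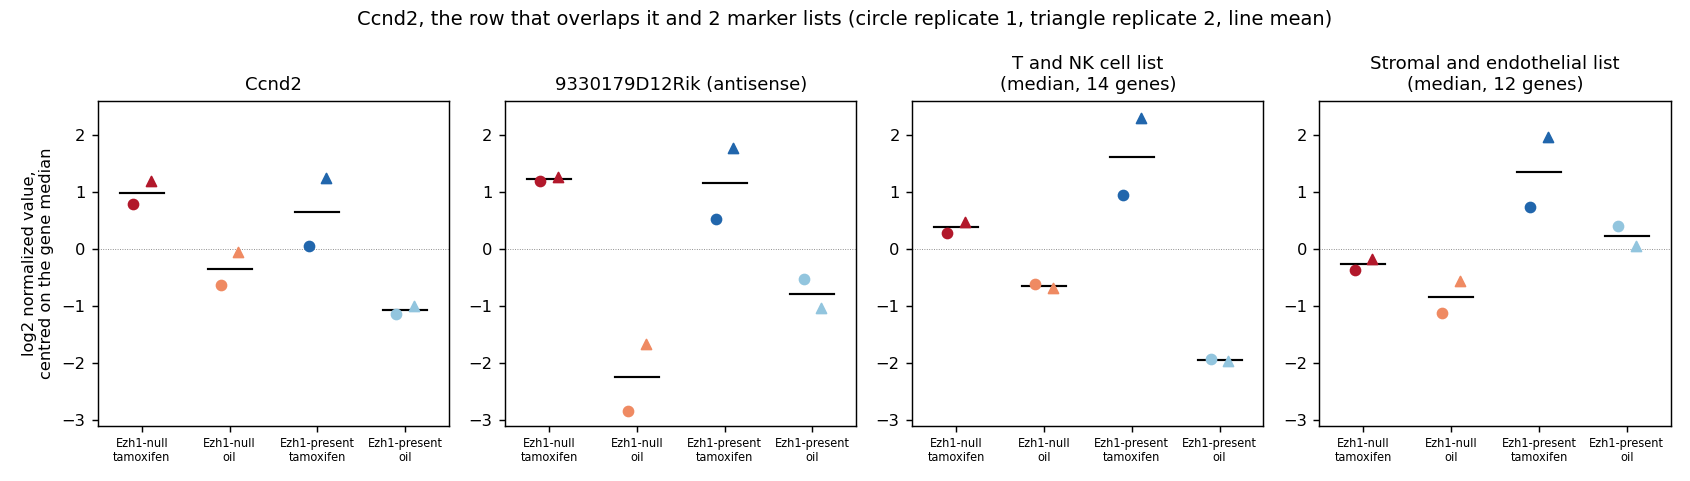
Ccnd2, its antisense row 9330179D12Rik, and the medians of 14 T and NK cell and 12 stromal and endothelial markers, as centred log2 normalized values (y axis) in the 4 groups (x axis); circles are replicate 1, triangles replicate 2 and lines the group mean. In all 4 panels Ezh1-present tamoxifen replicate 2 is the highest library, at 1.25 for Ccnd2 and 2.29 for the T and NK cell list.

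Ccnd3 encodes cyclin D3 (gene 12445, chromosome 17, 47505051 to 47599689), known for its part in lymphocyte and red cell precursors. Its values were 0.33 and -0.00 in Ezh1-null tamoxifen and 0.21 and 0.29 in Ezh1-null oil libraries, and -0.05 and 0.00 in Ezh1-present tamoxifen and -0.04 and -0.26 in Ezh1-present oil libraries. Tamoxifen and oil libraries overlapped in both Ezh1 genotypes. The change after tamoxifen was -0.09 ± 0.15 in Ezh1-null cells (95% interval -0.46 to 0.29) and 0.13 ± 0.15 in Ezh1-present cells (-0.25 to 0.50), and limma called neither. Ezh1-null oil libraries lay 0.40 ± 0.15 above Ezh1-present oil libraries without overlap (adjusted p = 0.11), which did not pass. Both intervals end below the change of 2.02 found for Ccnd1.

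The kinase Cdk4 (gene 12567, chromosome 10, 127063603 to 127067282) is the common partner of all D-type cyclins. It lay at -0.27 and -0.22 in Ezh1-null tamoxifen and -0.05 and -0.07 in Ezh1-null oil libraries, and at 0.34 and 0.11 in Ezh1-present tamoxifen and 0.05 and 0.29 in Ezh1-present oil libraries. All 4 Ezh1-null libraries were below all 4 Ezh1-present libraries, and the Ezh1-null tamoxifen libraries were lowest. The change after tamoxifen was -0.18 ± 0.13 in Ezh1-null cells (adjusted p = 0.538) and 0.05 ± 0.13 in Ezh1-present cells (adjusted p = 0.852). The Ezh1-null minus Ezh1-present difference was -0.47 ± 0.13 after tamoxifen (limma adjusted p = 0.0753) and -0.23 ± 0.13 in oil (adjusted p = 0.248), and neither passed.

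Cdk6 (gene 12571, chromosome 5, 3343893 to 3522225) varied least of the 8 genes, with a range larger than in 11% of the rows with every library above the floor. Its values were -0.03 and 0.04 in Ezh1-null tamoxifen and 0.03 and -0.05 in Ezh1-null oil libraries, and -0.11 and -0.23 in Ezh1-present tamoxifen and 0.03 and 0.10 in Ezh1-present oil libraries. The Ezh1-present tamoxifen libraries were the lowest pair and did not overlap with Ezh1-present oil. That change was -0.24 ± 0.09 (0.849-fold, limma adjusted p = 0.244) and did not pass, and in Ezh1-null cells the interval of the tamoxifen change was -0.22 to 0.25.

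The promoters of both kinases are shown because they differ in the E-box CACGTG, the element bound by Myc and related factors, while neither kinase was called in any comparison. The 250 bases before the RefSeq start are given 5′ to 3′ on the gene's strand (RefSeq, GRCm38.p6), in lower case with CACGTG in capitals. The Cdk4 window is chr10:127063285-127063534 and the Cdk6 window chr5:3343643-3343892, both on the plus strand.
Cdk4: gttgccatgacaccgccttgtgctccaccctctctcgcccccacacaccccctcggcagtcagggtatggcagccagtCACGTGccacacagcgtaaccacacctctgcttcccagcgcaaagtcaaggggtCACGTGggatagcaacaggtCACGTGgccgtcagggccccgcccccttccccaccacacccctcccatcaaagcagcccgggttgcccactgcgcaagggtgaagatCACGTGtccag
Cdk6: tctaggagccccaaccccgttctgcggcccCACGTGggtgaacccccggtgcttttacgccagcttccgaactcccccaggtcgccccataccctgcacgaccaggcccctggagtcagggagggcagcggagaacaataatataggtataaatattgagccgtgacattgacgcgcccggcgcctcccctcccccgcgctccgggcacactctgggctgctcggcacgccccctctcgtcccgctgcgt
Cdk4 holds CACGTG at 4 places, which begin 172, 118, 98 and 11 bases before the start, and Cdk6 holds it once, 220 bases before. Of 32851 RefSeq mouse windows of the same length 6.02% hold the motif at least once, and 7 windows (0.0213%) hold it at least 4 times. A match is a description of the letters, and no binding was measured here.

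Rb1 (gene 19645, chromosome 14, 73195502 to 73325791) encodes the retinoblastoma protein, the pocket protein that holds the activating E2F factors. It lay at -0.16 and -0.16 in Ezh1-null tamoxifen and 0.03 and 0.22 in Ezh1-null oil libraries, and at -0.05 and 0.41 in Ezh1-present tamoxifen and 0.22 and -0.03 in Ezh1-present oil libraries. The Ezh1-null tamoxifen libraries were the lowest 2 of the 8. The change after tamoxifen was -0.28 ± 0.19 in Ezh1-null cells (adjusted p = 0.516) and 0.08 ± 0.19 in Ezh1-present cells (limma adjusted p = 0.838), where the replicates lay far apart and the sign turned to -0.15 without Ezh1-present tamoxifen replicate 2. Rcbtb2 and Lpar6 overlap Rb1 on the other strand, and limma called neither after tamoxifen.

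Rbl1 (gene 19650, chromosome 2, 157145894 to 157204534) encodes p107, a pocket protein of cycling cells that binds repressive E2F factors and is itself a known E2F target. Its values were -0.32 and -0.37 in Ezh1-null tamoxifen libraries, against -0.09 and 0.04 in Ezh1-null oil libraries. In Ezh1-present cells they were -0.04 and 0.13 after tamoxifen, against 0.05 and 0.05 after oil. Both Ezh1-null tamoxifen libraries were below the other 6, which lay between -0.09 and 0.13. The change after tamoxifen was -0.32 ± 0.10 in Ezh1-null cells (0.8-fold, adjusted p = 0.19) and -0.01 ± 0.10 in Ezh1-present cells (limma adjusted p = 0.971), and neither passed. After tamoxifen the Ezh1 genotypes differed by -0.39 ± 0.10 (adjusted p = 0.0671), and in oil by -0.08 ± 0.10 (adjusted p = 0.621).

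The Rbl1 promoter is shown for its E2F site. Rbl1 and the E2F targets of DNA replication described further on were lowest in the same libraries. A link between the site and these values was not tested, and no binding was measured. The window is chr2:157204535-157204784 on the minus strand (RefSeq, GRCm38.p6), printed 5′ to 3′ along the gene with the E2F site in capitals.
Rbl1: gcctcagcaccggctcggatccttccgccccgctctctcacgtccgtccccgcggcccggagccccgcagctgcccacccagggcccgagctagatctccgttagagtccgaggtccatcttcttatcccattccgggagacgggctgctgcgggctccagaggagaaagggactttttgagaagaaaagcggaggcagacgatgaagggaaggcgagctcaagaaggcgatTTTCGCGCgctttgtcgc
The site TTTCGCGC begins 18 bases before the start. The E2F forms searched on both strands were TTTCCCGC, TTTGGCGC, TTTCGCGC and TTTGCCGC, and 0.256% of windows hold this form and 1.86% any of them. It overlaps no other motif searched, which were the GC box GGGCGG (in 32.7% of windows), CCAAT (33.8%), the CHR element TTTGAA (16%) and CACGTG. Windows were at hand for 5 of the 8 genes, and those of Ccnd3, Cdk4, Cdk6 and Rbl2 hold none of these E2F forms.

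Rbl2 (gene 19651, chromosome 8, 91070094 to 91123844) encodes p130, the pocket protein of resting cells. It lay at 0.05 and 0.16 in Ezh1-null tamoxifen and 0.02 and 0.21 in Ezh1-null oil libraries, and at -0.18 and -0.07 in Ezh1-present tamoxifen and -0.02 and -0.15 in Ezh1-present oil libraries. All 4 Ezh1-null libraries lay above all 4 Ezh1-present libraries. The differences between genotypes were 0.23 ± 0.11 after tamoxifen (adjusted p = 0.235) and 0.20 ± 0.11 in oil (limma adjusted p = 0.26), and neither passed. The changes after tamoxifen were -0.01 ± 0.11 in Ezh1-null and -0.04 ± 0.11 in Ezh1-present cells, with intervals of -0.30 to 0.28 and -0.33 to 0.25.

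Counted over the 8 genes, limma called 1 after tamoxifen in Ezh1-null cells (Ccnd1, higher), where 3.4% of all 18051 rows were called, 3.1% higher and 0.299% lower. In Ezh1-present cells it called 0 after tamoxifen (background 0.903%, with 0.637% higher and 0.266% lower), with 2 of 8 at an unadjusted p under 0.05 (Ccnd1 and Ccnd2) against 20.6% of all rows. Between the Ezh1 genotypes it called 0 after tamoxifen (background 12.2%, with 6.77% higher and 5.44% lower), with 3 of 8 at an unadjusted p under 0.05 against 32.3%. In oil it called 0 (background 24.9%, with 12.5% higher and 12.4% lower), with 1 of 8, Ccnd3, at an unadjusted p under 0.05 against 39.8%. For the difference between the tamoxifen changes it called 0 (background 0.476%), with 1 of 8, Ccnd1, at an unadjusted p under 0.05 against 14.9%. Groups without overlap were found for 5 of 8 genes after tamoxifen in Ezh1-null cells (background 49.2%), in 3 in Ezh1-present cells (53.8%), and in 6 after tamoxifen (62.5%) and 5 in oil (65.8%) between genotypes. These counts of genes without overlap are close to the shares over all rows.

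Libraries labelled as lacking both enzymes were also set against those labelled as carrying both, Ezh1-null tamoxifen against Ezh1-present oil, a comparison that shares libraries with those above. Of the 8 genes 3 were called, 2 higher and 1 lower, where 23.4% of all rows were called, 13.2% higher and 10.2% lower. At an unadjusted limma p under 0.05 stood 4 of 8, against 38.7% of all rows. Ccnd2 was higher by 2.06 ± 0.44 (4.18-fold, 95% interval 1.95 to 8.98, limma adjusted p = 0.0282) and Ccnd1 by 1.94 ± 0.27 (3.84-fold, adjusted p = 0.00998). Rbl1 was lower, with a change of -0.40 ± 0.10 (0.759-fold, adjusted p = 0.0451). Cdk4 changed by -0.41 ± 0.13 (adjusted p = 0.0743) and Rb1, Rbl2, Ccnd3 and Cdk6 by -0.26, 0.19, 0.31 and -0.06, and none of these 5 passed. In 7 of 8 genes, all but Cdk6, the groups did not overlap, against 66.8% of all rows.

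These calls leaned on single libraries. For Ccnd1 the adjusted p was 0.0533 without Ezh1-null tamoxifen replicate 2, and 0.052 and 0.0541 without Ezh1-present oil replicates 1 and 2. For Ccnd2 it was 0.0884 and 0.118 without Ezh1-null tamoxifen replicates 1 and 2, and 0.116 and 0.0995 without Ezh1-present oil replicates 1 and 2. For Rbl1 it was 0.134 and 0.155 without Ezh1-null tamoxifen replicates 1 and 2, 0.144 and 0.139 without Ezh1-present oil replicates 1 and 2, and 0.0648 without either Ezh1-null oil library. The directions of all 3 held in all 15 alternative fits, with changes of 1.80 to 2.09 for Ccnd1, 1.85 to 2.26 for Ccnd2 and -0.57 to -0.37 for Rbl1.

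**Figure D3:**
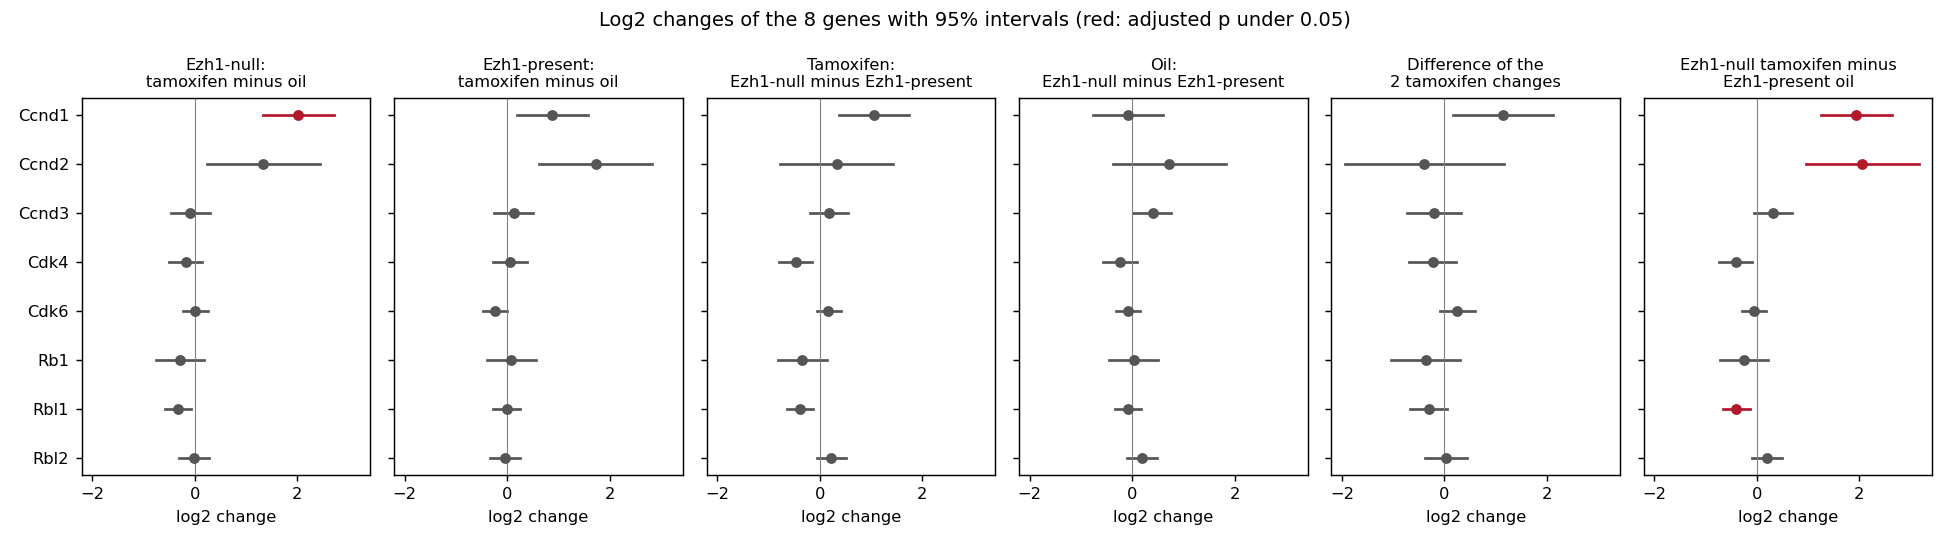
Log2 changes of the 8 genes (x axis, log2 scale; points, with 95% intervals as lines) in the 6 comparisons, with changes at a limma adjusted p under 0.05 in red. The red points are Ccnd1 at 2.02 in the Ezh1-null tamoxifen comparison, and Ccnd1 at 1.94, Ccnd2 at 2.06 and Rbl1 at -0.40 between Ezh1-null tamoxifen and Ezh1-present oil.

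Cdkn2a and Cdkn2b, which encode Ink4 inhibitors of these kinases, rose in the comparison in which Ccnd1 rose. Cdkn2a encodes Ink4a and also Arf, and whole-gene values do not tell which of them rose. Cdkn2a lay at 3.10 and 3.29 in Ezh1-null tamoxifen and -1.19 and -1.44 in Ezh1-null oil libraries. It lay at 1.40 and 0.97 in Ezh1-present tamoxifen and -0.97 and -1.26 in Ezh1-present oil libraries. It rose after tamoxifen by 4.51 ± 0.20 in Ezh1-null (limma adjusted p = 0.00264) and 2.31 ± 0.20 in Ezh1-present cells (adjusted p = 0.0276). Cdkn2b, which encodes Ink4b, rose by 3.77 ± 0.59 in Ezh1-null cells (adjusted p = 0.0406), and its 1.84 ± 0.59 in Ezh1-present cells did not pass (adjusted p = 0.179), with 2.29 ± 0.72 without Ezh1-present tamoxifen replicate 2 and 1.40 ± 0.72 without replicate 1. The Cdkn2a call in Ezh1-null cells held in all 15 alternative fits. In Ezh1-present cells it held in 5 of 15, and of the fits without 1 library only in that without Ezh1-present tamoxifen replicate 1 (adjusted p 0.0274 to 0.162 over all 15). The Cdkn2b call held in 4 of 15 and ended without any 1 of the 8 libraries (0.0365 to 0.187). In Ezh1-null tamoxifen libraries the highest values of Cdkn2a and Cdkn2b thus stood beside the highest values of Ccnd1.

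Among the other 5 inhibitors 0 were called for tamoxifen against oil in either Ezh1 genotype. Of all rows 3.4% were called in Ezh1-null and 0.903% in Ezh1-present cells. Between the genotypes in oil, 2 of the 7 were called higher and 2 lower in Ezh1-null cells, where 12.5% of all rows were called higher and 12.4% lower. Between the genotypes after tamoxifen 2 of the 7 were called higher in Ezh1-null cells, where 6.77% of all rows were. These were Cdkn2a (2.01 ± 0.20, limma adjusted p = 0.0111) and Cdkn1c, which encodes p57 (1.15 ± 0.19, adjusted p = 0.0268). The Cdkn1c call held in 10 of 15 alternative fits and ended without any 1 of the 4 tamoxifen libraries. Cdkn1a, which encodes p21, changed by 0.98 ± 0.17 after tamoxifen in Ezh1-null cells (adjusted p = 0.053) and by 0.22 ± 0.17 in Ezh1-present cells (limma adjusted p = 0.524). Cdkn2c, which encodes Ink4c, lay at -0.19 and 0.10 in Ezh1-null tamoxifen, 0.39 and 0.22 in Ezh1-null oil, -0.10 and 0.12 in Ezh1-present tamoxifen and -0.92 and -1.38 in Ezh1-present oil libraries. The Ezh1-present oil libraries stood below the 6 others, as they did for Ccnd2. In oil Cdkn2c was higher in Ezh1-null cells by 1.46 ± 0.20 (adjusted p = 0.00893), and Cdkn2d, which encodes Ink4d, by 0.81 ± 0.20 (adjusted p = 0.0397). Cdkn1a and Cdkn1b, which encodes p27, were lower there, by -0.72 ± 0.17 and -0.65 ± 0.14 (adjusted p = 0.0362 and 0.031). The Cdkn2c call held in all 15 alternative fits, and those of Cdkn2d, Cdkn1a and Cdkn1b in 7, 6 and 9. The last 3 ended without either Ezh1-null oil library or Ezh1-present oil replicate 1, and, except Cdkn1b, without Ezh1-present oil replicate 2. Those of Cdkn2d and Cdkn1b also ended without either Ezh1-present tamoxifen library, and that of Cdkn1a without either Ezh1-null tamoxifen library. Of the 7 Ink4 and Cip/Kip genes, 2 were called higher after tamoxifen in Ezh1-null cells, where 3.1% of all rows were. In Ezh1-present cells 1 was called higher, where 0.637% of all rows were. The median changes of the 7 were 0.98 and 0.54, against medians over all rows of -0.00 and 0.01.

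Downstream of the pocket proteins, E2F targets of DNA replication had their lowest median in the Ezh1-null tamoxifen libraries. The median over the 25 genes of the list was -0.24 and -0.25 in Ezh1-null tamoxifen and 0.00 and 0.04 in Ezh1-null oil libraries, and 0.08 and 0.08 in Ezh1-present tamoxifen and -0.01 and 0.05 in Ezh1-present oil libraries. After tamoxifen in Ezh1-null cells 24 of 25 changes were below 0 (median -0.25) and 1 passed, Mcm6, a subunit of the replicative helicase, at -0.48 ± 0.08 (limma adjusted p = 0.0488), a call that ended without any 1 of the 8 libraries and held in 3 of 15 alternative fits. In Ezh1-present cells 16 of 25 were above 0 (median 0.09) and 0 passed. Of all rows 3.4% passed after tamoxifen in Ezh1-null and 0.903% in Ezh1-present cells. Ezh1-null tamoxifen set against Ezh1-present tamoxifen libraries gave 5 of 25 called lower, where 5.44% of all rows were, among them Pola1 at -0.65 ± 0.10, Mcm6 at -0.50 ± 0.08, Mcm3 at -0.49 ± 0.09 and Rrm1 at -0.54 ± 0.10. Against Ezh1-present oil libraries 8 were called lower and 1 higher, where 10.2% and 13.2% of all rows were. After tamoxifen the genotype calls of Pola1, Rrm1 and Mcm3 held in 8, 7 and 5 of 15 alternative fits and ended without any 1 of the 4 tamoxifen libraries. That of Mcm6 held in 5 and ended without any 1 of the 8 libraries. That of Mcm3 also ended without any 1 oil library, that of Pola1 without either Ezh1-null oil library, and that of Rrm1 without either Ezh1-present oil library. Rbl1, at -0.32 and -0.37 in the Ezh1-null tamoxifen libraries, lay beside these targets.

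The E2F factors and the cyclin E and Cdk2 module act after Rb release. Of these, 0 of 10 and 0 of 8 were called after tamoxifen in either Ezh1 genotype. The shares of all rows called were 3.4% in Ezh1-null and 0.903% in Ezh1-present cells, so these counts are close to them. E2f1 changed by -0.25 ± 0.08 in Ezh1-null (adjusted p = 0.198) and -0.14 ± 0.08 in Ezh1-present cells (limma adjusted p = 0.398), and Cdk2 by -0.24 ± 0.12 and -0.21 ± 0.12. In oil 4 of the 10 E2F factors were called, 2 lower and 2 higher in Ezh1-null cells, against 12.4% and 12.5% of all rows. The lower were E2f5, a partner of p107 and p130 (-0.69 ± 0.11, limma adjusted p = 0.0133), and the activator E2f2 (-0.72 ± 0.15, adjusted p = 0.0235). The higher were E2f8, a repressor that needs no pocket protein (0.53 ± 0.12, adjusted p = 0.0341), and the activator E2f3 (0.69 ± 0.16, adjusted p = 0.0361). Of the cyclin E module, Ezh1-null oil libraries had lower Ccne1, which encodes cyclin E1 (-0.60 ± 0.14, limma adjusted p = 0.0357), and higher Cdc25a, a phosphatase that activates Cdk2 (0.64 ± 0.14, adjusted p = 0.0265). All 6 of these calls ended without any 1 of the 4 oil libraries, that of Ccne1 also without either Ezh1-present tamoxifen library and those of E2f3 and E2f8 without either Ezh1-null tamoxifen library. Between the genotypes after tamoxifen E2f7, a relative of E2f8, and E2f5 were called lower in Ezh1-null cells (-0.60 ± 0.11 and -0.57 ± 0.11, limma adjusted p = 0.0346 and 0.0367), and both calls ended without any 1 of the 8 libraries. Ccne2, which encodes cyclin E2, was called in none of these comparisons, with changes of -0.18 ± 0.18 in Ezh1-null and 0.33 ± 0.18 in Ezh1-present cells after tamoxifen.

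Further lists hold genes that activate the kinases, bind the pocket proteins or degrade D-type cyclins. The MuvB core joins p107 and p130 in the DREAM complex. After tamoxifen the shares of all rows called were 3.4% in Ezh1-null and 0.903% in Ezh1-present cells. In either genotype 0 of 3 genes of the CDK-activating kinase and 0 of 6 of the MuvB core and B-Myb were called. Of cyclin D turnover 0 of 4 were. The median changes of these lists in Ezh1-null cells were -0.14, -0.18 and -0.08, in this order. Those of the E2F factors and the cyclin E module were -0.06 and -0.15. Fbxo4, which in human cells was described as an F-box protein for cyclin D1, was higher in Ezh1-null oil than in Ezh1-present oil libraries, by 2.08 ± 0.35 (limma adjusted p = 0.0142). Lin37 of the MuvB core was also higher there (0.53 ± 0.13, adjusted p = 0.0378). The Fbxo4 call ended without either Ezh1-null oil library (highest adjusted p 0.0746) and that of Lin37 without any 1 of the 8. The lists share genes: Ccne1, Ccne2, Ccna2, Mybl2 and E2f1 stand among the E2F targets and in another list.

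**Figure D4:**
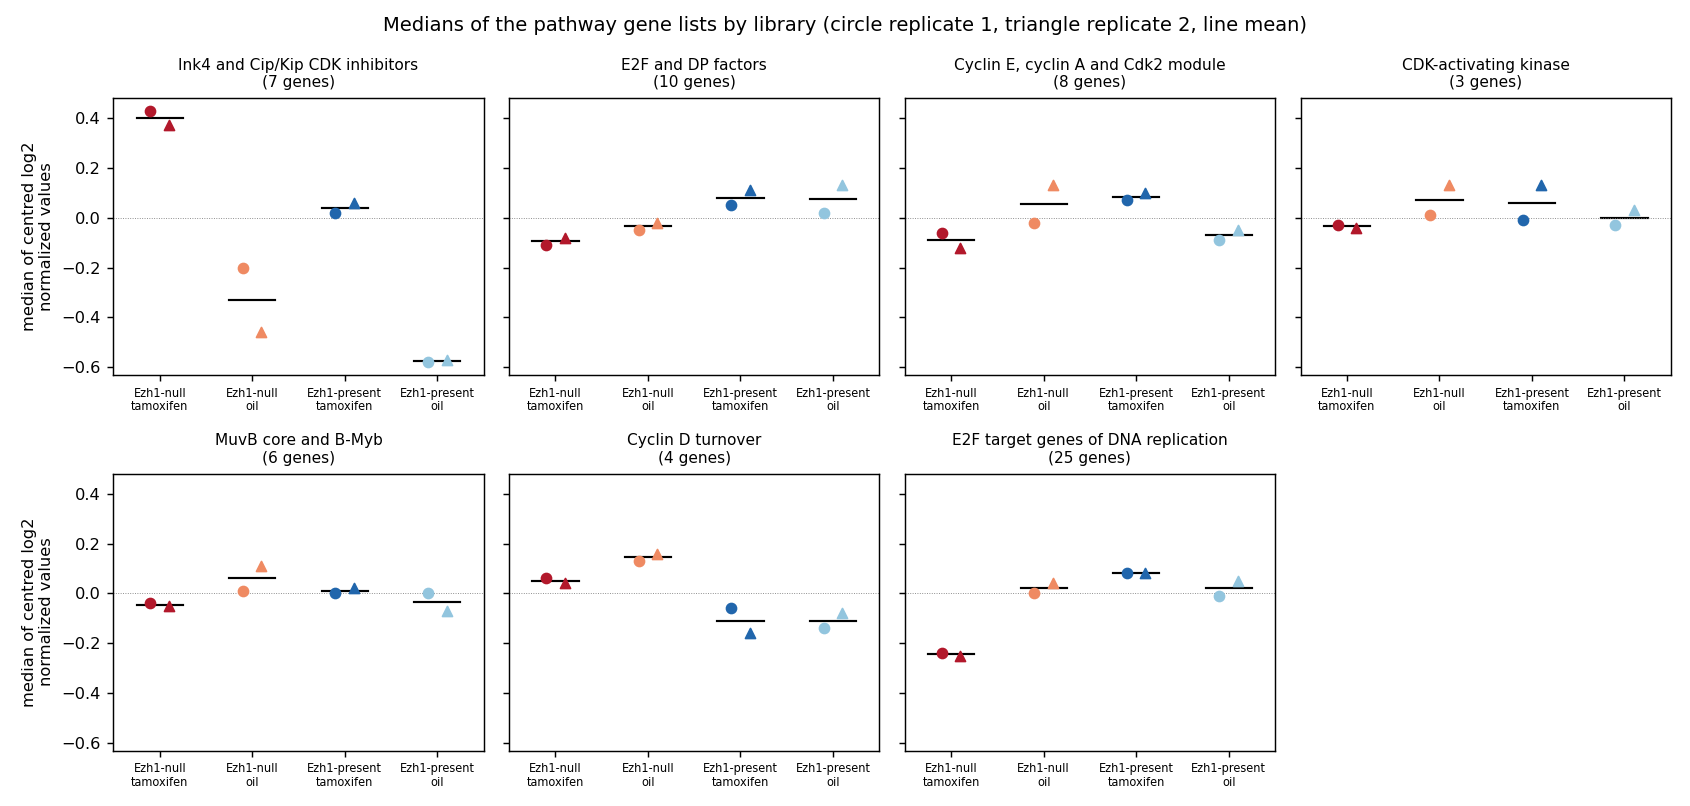
Median of the centred log2 normalized values over the genes of each pathway list (y axis) by group (x axis); circles are replicate 1, triangles replicate 2 and lines the group mean. The inhibitor list is highest in the Ezh1-null tamoxifen libraries (0.43 and 0.37), and the E2F target list lowest there (-0.24 and -0.25).

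For the 3 genes called in at least 1 comparison, the rows with the most similar pattern were sought among 15517 rows by Pearson correlation over the 8 libraries, given as a description since all points share these libraries. For Ccnd1 they were Bmpr1a, a receptor for bone morphogenetic proteins (r = 0.993), Hectd2 (0.991) and Trim30a (0.991). Bmpr1a lay at 4.29 and 4.34 in Ezh1-null tamoxifen and -0.45 and -0.56 in Ezh1-null oil libraries, and at 0.45 and 2.48 in Ezh1-present tamoxifen and -0.51 and -0.53 in Ezh1-present oil libraries. For Ccnd2 they were Rnf180 (0.985), the guanylate-binding protein gene Gbp10 (0.983) and Tcf7, which encodes the T cell factor TCF-1 (0.979). Tcf7 lay at 1.04 and 1.44 in Ezh1-null tamoxifen and -0.54 and -0.50 in Ezh1-null oil libraries, and at 0.50 and 1.58 in Ezh1-present tamoxifen and -1.43 and -1.20 in Ezh1-present oil libraries. For Rbl1 they were Gabpb1, a subunit of an ETS family factor (0.984), and the ubiquitin-conjugating enzyme genes Ube2g1 (0.982) and Ube2k (0.981), each between -0.24 and -0.21 in the Ezh1-null tamoxifen libraries.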

How the data were processed

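RNA was measured by sequencing of TruSeq libraries made from 1 µg of total RNA each, 8 libraries in 4 groups of 2, grouped by the genotype and treatment in their labels. Per the file headers, the authors normalized the values and filtered features by raw value, keeping the percentiles 20 to 100. The deposited values are on a log2 scale with a floor, and in each row the median over the 8 libraries is 0 to within 9.55e-07. The deposited tables also give the log2 fold change, the fold change as a ratio, and a signed fold change, here treated as a score, and the log2 changes equal differences of group means to within 5.4e-07. The genome build is mm10 per the submitters' processing notes. Which aligner, counter and scaling were used is not given in the sources used here. The centring hides a gene's level, so depth is unknown and no count test was possible.

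The values were fitted with limma 3.58.1 in R 4.3.3, with 1 coefficient per group, no replicate block and no trend in the moderation. Tests were two-sided, with 4 residual and 1.24 prior degrees of freedom. The fit used the 18051 rows in which 2 or more libraries exceed the floor (tolerance 2e-06). The other 12530 and 993 rows have 0 and 1 such libraries. It was tested on simulated data. With 2 libraries against 2 the smallest exact permutation p is 0.333, so no permutation test was run. Tables and plots were made with Python 3.11.15, pandas 2.3.3 and matplotlib 3.10.9.

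The 8 genes and the gene lists were chosen with earlier results of these data known. Named were all 8 genes, Ezh1, Ezh2, Kit as the gate, 10 fixed pathway genes, at most the 4 called members of a list with the smallest p, and the 3 rows most like each called gene. Rows that overlap one of the 8 genes were added after their values were seen. The replicate numbers did not pair the libraries. Marker lists of other marrow cells are given as medians per library, or as a range over the libraries, and their counts and 2 named genes were also recomputed without each Ezh1-present tamoxifen library, an alternative chosen after seeing the data. Alternatives changed the filter, the normalization, the moderation, the libraries in the fit and the replicate block, or left out each library in turn.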

Additional observations from a re-analysis of the deposited data

How the results depend on the processing

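Over the 48 changes of the 8 genes, 712 values were recomputed and 663 kept their direction and their side of the threshold. Another 24 kept the direction and lost the call, 3 gained one and 22 changed sign, none of these 22 from a called change. After tamoxifen in Ezh1-null cells 1 gene was called in the fit reported, and 0 with only the groups compared in the fit (Ccnd1 adjusted p = 0.0551), 0 with the replicate block (0.0546), and 0 to 1 without 1 library. Between the Ezh1 genotypes after tamoxifen 0 were called, and 2 with quantile normalization, Ccnd1 (adjusted p = 0.0219) and Rbl1 (0.0306), and 0 to 1 without 1 library. For Ezh1-null tamoxifen against Ezh1-present oil 3 were called, and 0 to 3 without 1 library. There Rbl1 lost its call with only the groups compared in the fit (0.0637), with the replicate block (0.0673) and with robust moderation (0.0509).

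Changes near 0 turned sign. With quantile normalization Cdk6 changed by -0.0016 after tamoxifen in Ezh1-null cells. Leaving out 1 library gave, after tamoxifen in Ezh1-null cells, -0.25 to 0.08 for Ccnd3, -0.03 to 0.06 for Cdk6 and -0.10 to 0.08 for Rbl2. In Ezh1-present cells it gave -0.07 to 0.17 for Cdk4, -0.15 to 0.31 for Rb1, -0.10 to 0.07 for Rbl1 and -0.10 to 0.02 for Rbl2. Between genotypes it gave -0.26 to 0.93 for Ccnd2 after tamoxifen, and in oil -0.16 to 0.0001 for Ccnd1 and -0.10 to 0.15 for Rb1. The difference between the tamoxifen changes ran over -0.99 to 0.20 for Ccnd2 and -0.06 to 0.12 for Rbl2. The cause was not tested.

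The replicate numbers share no origin in the labels, and the correlation of replicate differences between groups ran over -0.0908 to 0.124, so the block is an alternative only. All 8 libraries enter the difference between the tamoxifen changes, so a fit with only the groups compared does not exist for it. A lone library left in a group is assumed to vary like the other groups. With 2 libraries a group and depth unknown, the intervals cover the spread between these libraries alone.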
